A study of Petromyzon marinus with 6 samples.

Results

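Whole sea lamprey embryos (Petromyzon marinus, a vertebrate without jaws) were compared between 1 and 2 days after fertilization, with 1 RNA-seq library at each day. The series holds 6 libraries, with later ones at day 2.5 and at days 3, 4 and 5, all from whole embryos with no treatment or genotype in the labels. The number of embryos and of spawnings behind a library, and whether polyadenylated RNA was selected, are not given in the labels. The day 1 library held 21910119 counts and the day 2 library 17598545. The transcripts are 145913 assembled contigs, and a component is the set of contigs that share an assembly identifier up to its sequence number. Of 87262 components, 31146 had 60 or more counts over the 6 libraries and were compared, as were 47525 contigs. These components held 99.7% of the counts at day 1 and 99.4% at day 2. The contigs carry no gene names in the files, and of their identifiers 0 matched a name in the table of 45433 reference genes. The stage labels could therefore not be checked against marker genes, and no pathway list was used.

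An animal egg is loaded by the mother with messenger RNA, and the early embryo runs on this store before its own genome is transcribed. In the maternal-to-zygotic transition the maternal RNAs are degraded in waves while the zygotic genome becomes active. Sea lamprey embryos are also known for losing part of the genome from their somatic cells early in development.

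With 1 library a day, day and library cannot be told apart, and no difference has a replicate check. Values are CPM, counts scaled to a common library size, and so are shares of a library, and the amount of RNA in an embryo was not measured. A fall in CPM from fewer cells of a type and one from less RNA per cell cannot be told apart in whole embryos. The libraries of days 1, 2.5 and 5 stood apart from those of days 2, 3 and 4 in some contigs. By a 4-fold gap on the log2(CPM + 0.5) scale this held for 4 of the components and 234 of the contigs compared here. Without them the counts of changed features below are 1534 in place of 1538 components and 4672 in place of 4906 contigs. Features with a smaller gap of this kind were not counted.

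Most components stayed within 2-fold from day 1 to day 2, on a scale that shrinks changes of low ones, and large changes were mostly upward. On the log2(CPM + 0.5) scale the median component differed by 0.09 between the days, with an interquartile range of -0.36 to 0.54. In the 20197 components with 60 counts over days 1 and 2 alone, the median was -0.04. In total 24414 components, or 78.4%, stayed within 2-fold. Among them were 1483 with under 3 counts at both days, 611 of which had 0 at both. With 0.5 CPM added, components this low could not pass 2-fold, so for them the count does not show stability. A component was called changed when it differed 4-fold or more and the exact 95% Clopper-Pearson interval of its count ratio excluded 1. By this rule 1329 components were higher at day 2, or 4.27%, and 209 were lower, or 0.671%. Together these 1538 were 4.94% of the components, and 86.4% of them were higher. In every component that differed 4-fold, the interval excluded 1, so the condition on the interval removed no component from the calls. Without any limit on size, the interval excluded 1 in 18689 components, with 10619 higher and 8070 lower.

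**Figure D1:**
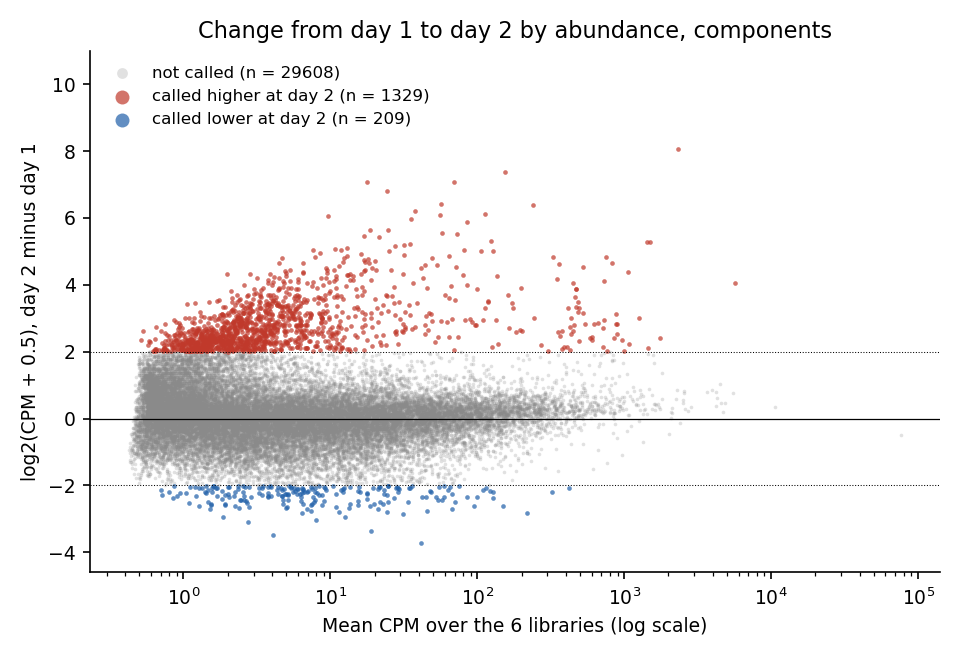
Each point is 1 of 31146 components, with its mean CPM over the 6 libraries on a log axis and its difference between day 2 and day 1 on the log2(CPM + 0.5) scale, red for the 1329 called higher, blue for the 209 called lower and grey for the rest. The upward differences reach 8.06 and the downward ones -3.71, and the dotted lines mark 4-fold.

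Which direction held more transcripts depended on the size of change asked for. Among components with 100 or more counts in the higher of the 2 libraries, 1759 were 2-fold or more lower at day 2 and 883 were 2-fold or more higher. These were 12.3% of 14275 components and 6.89% of 12823. At 4-fold the order had turned, with 195 lower and 424 higher. At 8-fold 5 were lower and 290 higher, and at 16-fold none was lower and 117 were higher. Of the higher ones 33 passed 32-fold and 11 passed 64-fold. The turn between 2-fold and 4-fold was also present with the deposited TPM (2046 lower and 826 higher at 2-fold, 265 and 421 at 4-fold). It was present in components of 1 contig, whose reads needed no summing (905 and 430, then 101 and 194). With 5 CPM in the higher library in place of 100 counts, the numbers were 1589 lower and 868 higher at 2-fold and 184 and 418 at 4-fold. Over all 31146 components, low ones included, 4277 or 13.7% were 2-fold higher with an interval excluding 1, and 2455 or 7.88% were 2-fold lower. Of the higher ones, 1752 changed less than 4-fold from under 3 counts at day 1. These had too few counts at days 1 and 2 to pass the filter without later libraries. The excess of higher ones over all components is thus in part set by the filter.

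**Figure D2:**
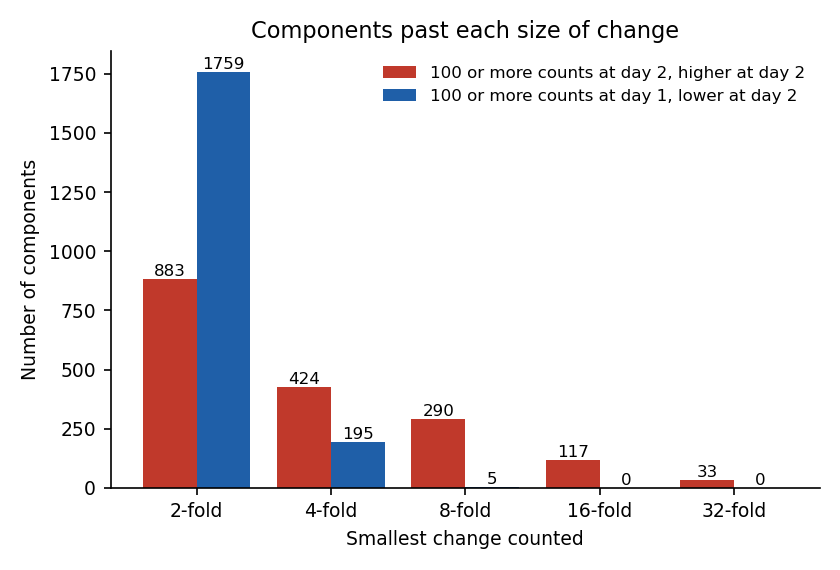
Bars give the number of components past each size of change, for components with 100 or more counts at day 2 that were higher there (red) and with 100 or more counts at day 1 that were lower at day 2 (blue). Blue exceeds red at 2-fold (1759 against 883), and red exceeds blue at every larger size drawn.

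The size of change differed by abundance class, taken from the mean CPM over the 6 libraries. Days 1 and 2 enter this mean, and so do the 4 later libraries, which ties a class to what came after day 2. The classes are in fragments and are not divided by transcript length. In the 6120 components under 1 CPM the median was 0.26 on the log2 scale, with 19.0% of them 2-fold higher and 5.05% 2-fold lower. They had a median of 5 counts at day 1 and 11 at day 2, so that the interval excluded 1 in 45.0% of them. The 15207 components of 1 to 10 CPM held most of the calls, with 977 higher 4-fold and 124 lower. Their median was 0.05, while their 90th percentile, 1.57, was the highest of the 4 classes.

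The 7980 components of 10 to 100 CPM were the only class in which more were 2-fold lower (673, or 8.43%) than higher (483, or 6.05%). At 4-fold the order was the opposite, with 186 higher and 68 lower. Their median was 0.01 and their share of all counts went from 33.7% at day 1 to 30.7% at day 2. In the 1839 components of 100 CPM or more the median was 0.24, and counting error was small, the interval excluding 1 in 90.9%. There 81 were 4-fold higher and 10 lower. The 79 components of 1000 CPM or more had a median of 0.46, with 9 called higher and 0 lower.

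The class pattern depended on which libraries set the classes. With classes by the mean of days 1 and 2 alone, the median was 0.37 under 1 CPM, -0.07 at 1 to 10 CPM, -0.03 at 10 to 100 CPM and 0.13 at 100 CPM or more. At 10 to 100 CPM, 758 components were then 2-fold lower and 320 higher. At 100 CPM or more the direction turned, with 96 of 1779 components 2-fold lower and 31 higher, and with 20 lower and 8 higher at 4-fold. Under 1 CPM 249 were 4-fold higher and 0 lower. Components this low over days 1 and 2 had too few counts there to pass the filter without later libraries. The median of this class and its numbers higher and lower are thus in part set by the filter.

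**Figure D3:**
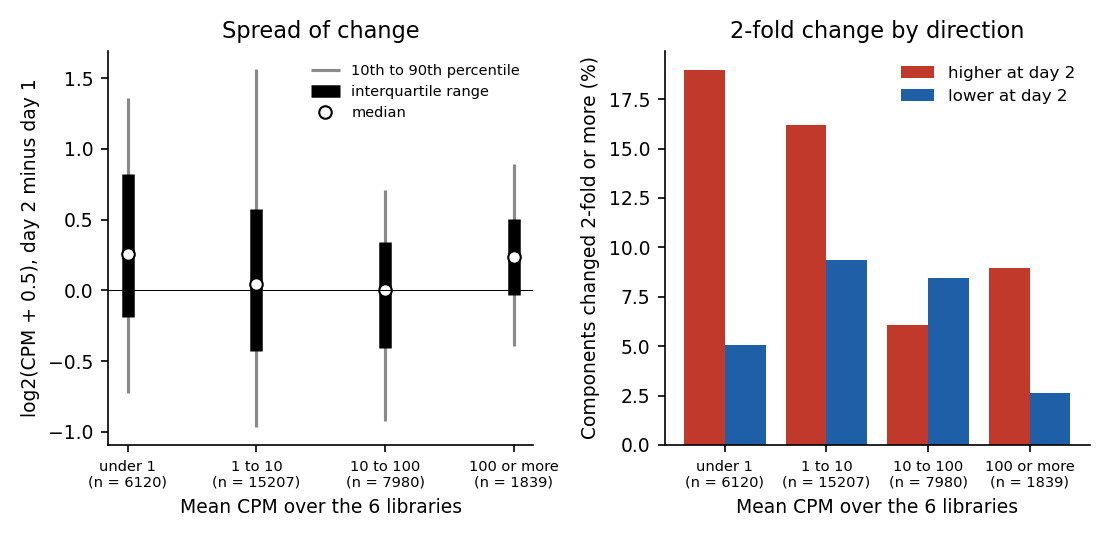
Left, the median (circle), interquartile range (thick line) and 10th to 90th percentile (thin line) of the log2(CPM + 0.5) difference between day 2 and day 1 in 4 classes of mean CPM over the 6 libraries. Right, the percentage of each class 2-fold or more higher (red) or lower (blue) with an interval excluding 1. In the class of 10 to 100 CPM the lower share (8.43%) exceeds the higher one (6.05%).

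As components, transcripts newly counted at day 2 outnumbered those no longer counted, and by how much depended on the unit and the filter. With no filter 19690 components had 0 counts at day 1 and at least 1 at day 2, and 3275 the reverse. Among the 31146 compared the numbers were 3488 and 165, but a component can pass that filter through later libraries alone. With 60 counts required over days 1 and 2, they were 224 and 0. A component was taken as newly counted when day 1 had under 3 counts and day 2 had 30 or more, which held for 980, or 3.15% of all. They were 4.92% of the 19931 components with 30 or more counts at day 2. The mirror rule, with the days exchanged, found 5 components, or 0.0161%. They were 0.0249% of the 20056 components that reached 30 counts at day 1. With no filter the numbers were 985 and 12, and with 60 counts over days 1 and 2 they were 365 and 0. As single contigs they were 2559 and 970, so the imbalance was far smaller where reads were not summed by component. Had day 1 been sequenced to the depth of day 2, the expected numbers by binomial probabilities would be 1036 and 1.20.

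Few of the newly counted components were abundant at day 2. The median of the 980 was 48 counts there, with an interquartile range of 37 to 74, and 145 had 100 or more. Over all 31146 components compared the median at day 2 was 60 counts, and 12823 had 100 or more. The most abundant newly counted one had 1 count at day 1 and 1222 at day 2 in a contig of 5670 nt. Its CPM ratio was 1521, with a counting interval of 273 to 60135. Together the 980 took 0.00204% of the counts at day 1 and 0.392% at day 2. In 645 of them day 1 had 0 counts. Relative to 3 counts per library taken as the floor of day 1, which is 0.119 CPM, these were at least 12.4-fold to 274-fold higher at day 2, with a median of 19.5. By the 4-fold rule 889 of the 980 were called higher, and the others were too low to pass 4-fold with 0.5 CPM added to each value. The longest contig had a median of 1238 nt in the newly counted components, 1334 nt in all those called higher, 1735 nt in those called lower and 1292 nt in all compared.

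The 5 components no longer counted were at the edge of the rule. They had 30 to 40 counts at day 1 and 1 or 2 at day 2. At day 2.5 they had 30, 22, 10, 8 and 31 counts, but a component with so few counts at days 1 and 2 passes the filter only through later libraries. Of the 12 found with no filter, the counts at day 2.5 ran from 0 to 31, with a median of 9. None of the 209 components called lower was under 3 counts at day 2, and 143 of them still had 30 or more. The median of the 209 kept 17.6% of its day 1 CPM, and the least kept was 4.61%. Under 10% was kept in 19. Of the components with 0 counts at day 2, the largest had had 27 at day 1, whereas the largest with 0 at day 1 had 660 at day 2.

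Those called higher started from very little. Of the 1329, 605 had 0 counts at day 1 and 284 had 1 or 2, together with 319 that had from 3 to below 30. A further 108 started from 30 to below 300 counts and 13 from 300 or more. These last groups were few, yet the 108 made 38.2% and the 13 made 19.2% of the CPM that the called components gained. The 605 that started from 0 made 15.1% of it.

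The gain had no dominant member. In CPM, 17178 components were higher at day 2 and 13357 were lower. The positive differences summed to 136101 CPM, and 433 components, or 2.52% of those gaining, made 50% of that sum. The component that gained most made 1.84% of it, the top 10 made 9.40%, the top 100 made 28.5% and the top 1000 made 66.3%. Small changes made most of the gain: components that changed less than 2-fold made 78.7%, those of 2-fold to 4-fold 11.3% and those of 4-fold or more 9.996%. The 980 newly counted made 2.49%. By class, components of 100 CPM or more made 66.7% of the gain and those of 10 to 100 CPM 24.0%. The part of the gain from small changes within each class was not computed.

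The loss had 1 dominant member. The negative differences summed to 138588 CPM, of which the most abundant component of the series made 16.6%. This component of 2 contigs, the longer one of 7607 nt, had 1996513 counts at day 1 and 1137752 at day 2, or 9.11% and 6.47% of the library. Its CPM ratio was 0.709 (0.708 to 0.711), so it was lower by less than 2-fold. From 79185.5 CPM at day 1 and 56176.6 CPM at day 2 it went to 21597 CPM at day 2.5. At days 3, 4 and 5 it was above its day 1 level in CPM, with 95158, 118772 and 89135 CPM. By library totals without the TMM factor, it was above its day 1 share at day 4 only. It then had 1732820 of 20769683 counts at day 3, 1929368 of 19845393 at day 4 and 1207987 of 15503476 at day 5. With it, 306 components made 50% of the loss, and without it 521 did. More of the loss than of the gain came from changes of 2-fold to 4-fold (27.9% against 11.3%). Components that changed less than 2-fold made 64.4% of the loss and the 209 called lower made 7.65%. Components of 10 to 100 CPM made 42.5% of it and those of 100 CPM or more 45.1%.

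**Figure D4:**
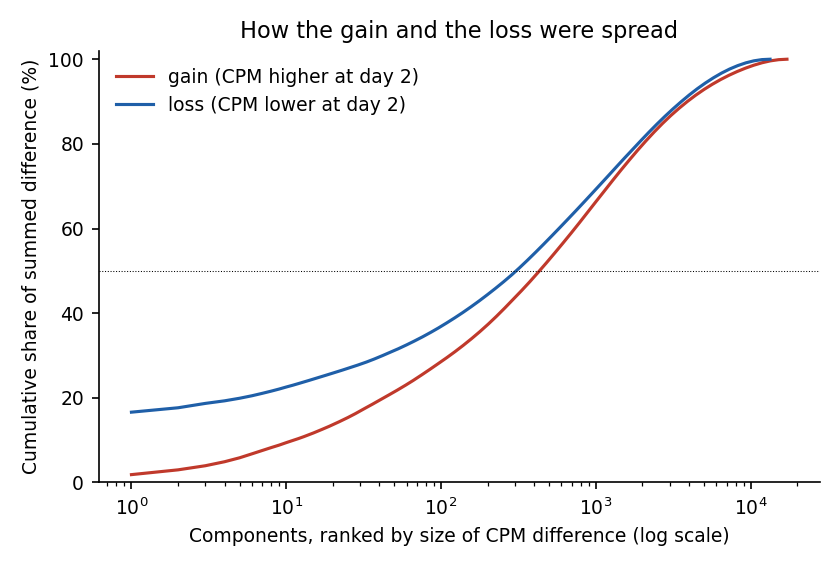
Components are ranked by the size of their CPM difference between day 2 and day 1 (log axis), and the curves give the cumulative percentage of the summed gain (red) and loss (blue). The loss starts at 16.6% with 1 component, and 50% (dotted line) is reached at 433 components for the gain and 306 for the loss.

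Among the 10 components that gained most CPM, 8 were already above 1000 CPM at day 1 and 2 were not. The first, 1 contig of 1679 nt, had 90765 counts at day 1 and 123764 at day 2, or 3600 and 6111 CPM. Its ratio was 1.70 (1.68 to 1.71), and in the later libraries it had 2972, 6919, 8737 and 4461 CPM at days 2.5, 3, 4 and 5. Its levels at days 1, 2.5 and 5 were thus all below those at days 2, 3 and 4. This is the split between libraries described above, with a gap under 4-fold. The third, 1 contig of 4566 nt, went from 1263 to 2582 CPM and continued to 3700, 6224, 7135 and 6134 CPM. The fifth and ninth began low, at 4.24 and 28.3 CPM. The ninth, of 14 contigs, reached 822 CPM at day 2, a ratio of 29.02 (26.9 to 31.3). It then had 734, 275, 81.7 and 11.4 CPM in the next 4 libraries, so that its high levels lay at days 2 and 2.5. Of the top 100 gaining components 77 changed less than 2-fold, 9 were called 4-fold higher and none was newly counted.

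Of the components that lost most CPM after the dominant one, several were lower by a larger ratio. The second, 1 contig of 2737 nt, had 56090 counts at day 1 and 15899 at day 2, or 2225 and 785 CPM. Its level went on down to 401, 216, 19.3 and 8.34 CPM at days 2.5, 3, 4 and 5. The sixth, 1 contig of 7267 nt, had 942 CPM at day 1 and 132 at day 2, a ratio of 0.140 (0.134 to 0.146), and between 36.5 and 98.5 CPM afterwards. The fifth did not keep falling: from 3078 CPM at day 1 it went to 2236 CPM at day 2 and then to 4278 CPM in the day 2.5 library. Of the top 100 losing components 39 changed less than 2-fold and 22 were called 4-fold lower. The median log2 difference was -1.17 in this top 100 and 0.61 in the top 100 gaining.

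On the log2(CPM + 0.5) scale, among components reaching 100 counts at either day, the one furthest above day 1 was comp293841_c1, of 17 contigs, the longest of 6819 nt. It had 107 counts at day 1 and 25712 at day 2, then 63696, 71048, 54391 and 35061 at days 2.5 to 5. Day 1 was the low library and all later ones were above 1000 CPM. From 4.24 CPM it went to 1270 CPM at day 2, a ratio of 299 (247 to 365) and a log2 difference of 8.06. It alone made 9.30% of the CPM gained by the 1329 components called higher. Its contig of 6819 nt held 82 of the 107 counts at day 1 and 50.6% of those at day 2, while a contig of 6126 nt went from 0 to 4251 counts.

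The next was comp292174_c0, of 4 contigs, the longest of 2730 nt. It had 8 counts at day 1 and 2732 at day 2, then 3555, 5390, 4245 and 990 at days 2.5 to 5. Its log2 difference was 7.37, and its CPM ratio of 425 had a wide interval of 215 to 986 because of the 8 counts at day 1. Its level was highest at day 3, at 296 CPM. All 8 day 1 counts lay in its contig of 1707 nt, which held 78.4% of the day 2 counts.

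On the same scale the component furthest below day 1 was comp282890_c2, of 2 contigs, the longer of 1608 nt. It had 5022 counts at day 1 and 298 at day 2, then 603, 104, 11 and 11 at days 2.5 to 5. It was highest at day 1, with 199 CPM, and the day 2.5 level of 27.2 CPM lay above the day 2 level of 14.7. The ratio of day 2 to day 1 was 0.0739 (0.0655 to 0.0830) and the log2 difference -3.71. Another component of the same assembly graph, 1 contig of 835 nt, ranked after the next one in size of fall and was picked out after its values were seen. It had 1991 counts at day 1 and 148 at day 2, then 513, 46, 5 and 14 at days 2.5 to 5, again with day 2.5 above day 2.

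The second furthest below on this scale was comp284785_c0, of 8 contigs, the longest of 2792 nt. It had 500 counts at day 1 and 27 at day 2, then 49, 13, 1 and 1 at days 2.5 to 5. The ratio was 0.0672 (0.0439 to 0.0990), a lower value than that of comp282890_c2 within overlapping intervals, and the log2 difference was -3.47. Its contig of 2558 nt went from 340 counts to 10, while one of 2442 nt went from 0 to 17, so its contigs did not move alike.

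The later libraries show what became of these sets, which were picked by days 1 and 2 among components that passed the filter over all 6 libraries. The later libraries thus had a part in the filter. With 60 counts required over days 1 and 2, 758 of 20197 components were called higher, and with no filter 1332 of 77681. The median of the 1329 components called higher was 0.0397 CPM at day 1 and 3.26 CPM at day 2, then 3.93, 4.23, 3.63 and 1.55 CPM at days 2.5 to 5. In counts it was 87 at day 2.5 and 77 in the deeper day 3 library, so without the TMM factor day 2.5 would be highest. The share of all counts held by the 1329 grew at each library, from 0.104% at day 1 and 1.67% at day 2 to 2.70%, 6.87%, 9.17% and 10.1%. Most of this share lay in the 440 of them that had 3 or more counts at day 1. Those 440 held 1.29% of all counts at day 2 and 6.37%, 8.57% and 9.63% at days 3, 4 and 5. From day 4 to day 5 the median of the 1329 was thus lower and their share higher. By highest library in CPM, 217 peaked at day 2 itself, 377 in the library of day 2.5, then 284, 346 and 105 at days 3 to 5. Highest libraries were not counted over all components or under another scaling, here or for the sets below. In the last library, 137 of the 1329 were under 3 counts, as were 1990 of all 31146 components compared.

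The newly counted had a median of 2.37 CPM at day 2, then 3.03, 2.80, 2.40 and 0.959 CPM at days 2.5 to 5. Of the 980, 27 were highest at day 5 and 165 at day 2, and 134 were under 3 counts at day 5. The 209 called lower had a median of 15.5 CPM at day 1 and 2.96 CPM at day 2, then 4.02, 1.92, 2.09 and 3.54 CPM at days 2.5 to 5. Day 1 was the highest library in 176 of them and day 5 in 17. A high value at day 1 and a low one at day 2 selected these 209. A highest level at day 1 and a higher value at day 2.5 are thus both in part set by the rule.

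**Figure D5:**
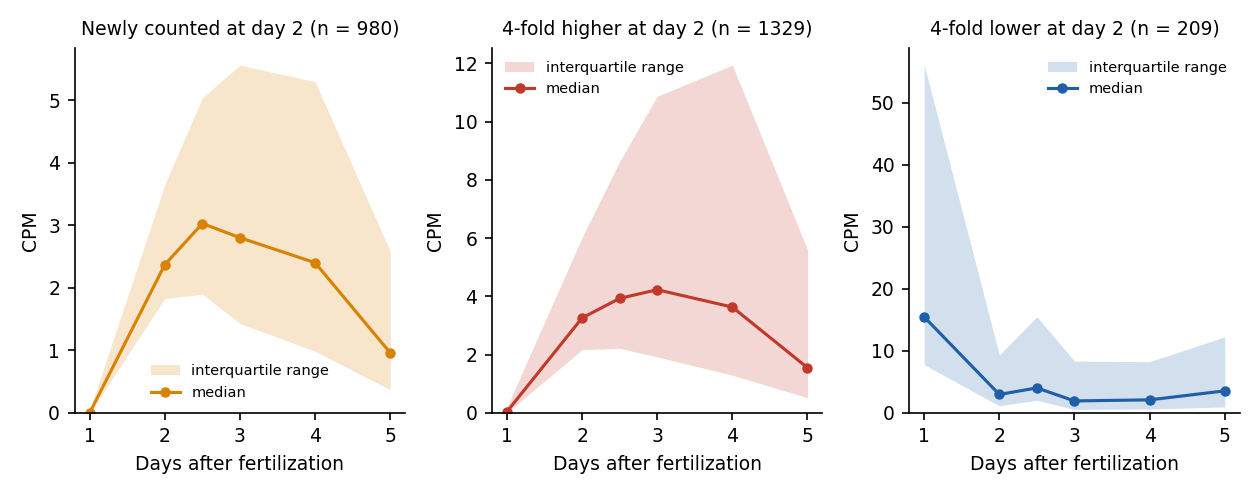
Median CPM (points) and interquartile range (shading) over the 6 libraries for the 980 newly counted components, the 1329 called 4-fold higher and the 209 called 4-fold lower at day 2. The first 2 sets have their highest median at day 2.5 (3.03 CPM) and day 3 (4.23 CPM), and the third falls from 15.5 to 2.96 CPM between days 1 and 2. Without the TMM factor the median of the 1329 would also be highest at day 2.5.

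Single contigs changed more often than the components they belong to, above all downward. Of 47525 contigs 3293 were called higher, or 6.93%, and 1613 lower, or 3.39%, together 10.3%, so that 67.1% of the called contigs were higher against 86.4% of the components. In components of 1 contig 719 were called higher and 91 lower, or 4.57% of 17742. Called as components, the same 17742 gave 710 higher and 109 lower. Contigs had their own TMM factors, 1.19 at day 1 and 1.14 at day 2, where components had 1.15 at both. In components of 2 or more the share was 13.8% of 29783, with 2574 higher and 1522 lower. In 1072 of the contigs called lower, or 66.5%, the component as a sum stayed within 2-fold, and in 1575 of those called higher, or 47.8%. Contigs of the same component were called in opposite directions in 445 components, of which 383 stayed within 2-fold as a sum. RSEM divides reads among near-identical contigs by estimate. At day 1, 50.6% of the expected counts above 0 were not whole to within 0.005, and at day 2 43.1%. The part of this division in the contig changes was not tested.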

How the data were processed

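RNA was measured in whole sea lamprey embryos with 1 paired-end library per stage, from RNA extracted with Trizol and NEBnext libraries, per the labels' protocols. The authors' deposited expected counts were made with RSEM, as the submitters' processing notes list. Which version, which aligner and how the contigs were assembled is not given in the sources used here. The authors also deposited TPM, which was used only as an alternative scaling, FPKM, which was not used, and contig lengths, which describe the contigs (a score in nucleotides), per the file headers.

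Expected counts were rounded to whole numbers and summed by component. Features with 60 or more counts over the 6 libraries were kept. CPM used library totals multiplied by TMM factors (edgeR 4.0.16), with 6 libraries in the fit. For components the factor was 1.15 at day 1, 1.15 at day 2, 1.20 at day 2.5, and 0.877, 0.819 and 0.874 at days 3, 4 and 5. For contigs it was 1.19 at day 1 and 1.14 at day 2. Differences are given as log2(CPM + 0.5), so that changes of low features come out too small. Calls needed a 4-fold difference and an exact 95% Clopper-Pearson interval of the count ratio that left out 1. No p-value was computed, since each stage had 1 library. Intervals and floors cover counting error only. At most 4 components are named: the 2 furthest up and the 2 furthest down among those reaching 100 counts at day 1 or day 2. Abundance classes used the mean CPM over the 6 libraries. Alternatives were DESeq2 1.42.0 size factors and other scalings, filters, pseudocounts, thresholds and single contigs. The components, classes and rules were chosen with earlier results of these data known. Scripts ran under Python 3.11.15 (with matplotlib 3.10.9, pandas 2.3.3, scipy 1.17.1 and numpy 2.4.6) and R 4.3.3.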

Additional observations from a re-analysis of the deposited data

How the results depend on the processing

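With 56 values recomputed under the alternatives, 31 stayed close to those reported and 25 moved. The direction of the component calls held: 86.2% to 87.4% of changed components were higher with DESeq2 size factors, library totals, the deposited TPM or components of 1 contig, 78.4% with 60 counts required over days 1 and 2, and 71.6% with a pseudocount of 5. The 1538 changed components became 3120 with the deposited TPM, 967 with 60 counts over days 1 and 2, 141 with a pseudocount of 5 (which shrinks low folds), 411 at 8-fold, 6732 at 2-fold and 819 in components of 1 contig. At 8-fold 98.8% were higher and at 2-fold 63.5%. The 4906 changed contigs became 553 with a pseudocount of 5, 1889 at 8-fold and 13884 at 2-fold. By class, 92 changed components under 1 CPM became 249 with classes by days 1 and 2, 911 with TPM and 697 as single contigs. Those of 1 to 10 CPM went from 1101 to 1843 with TPM and 3220 as contigs, those of 10 to 100 CPM from 254 to 861 as contigs, and those of 100 CPM or more from 91 to 28 with classes by days 1 and 2. The 980 newly counted became 145 from 100 counts, 645 with 0 at day 1 and 2559 as contigs. The 5 no longer counted became 0 from 100 counts, 0 with 0 at day 2, 1.20 with day 1 thinned, 970 as contigs and 12 with no filter. The 433 components making 50% of the gain became 771 contigs. Beyond what each alternative's construction gives, the cause was not tested. The alternative with no filter for newly and no longer counted components, leaving out the features that split by library set, and the other settings of the size-of-change counts were chosen after seeing the data. No paired analysis was possible because a stage has a single library, and for the same reason no library could be left out. Below 3 counts, absence and a low level were not distinguishable.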

Other observations

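The components 2-fold to 4-fold lower at day 2 were a much larger group than those called 4-fold lower. These 2246 components, with intervals excluding 1, held 7.18% of all counts at day 1 and 2.73% at day 2, then 2.88% in the day 2.5 library. Their median was 7.85 CPM at day 1 and 2.81 CPM at day 2, then 3.21, 1.98, 2.22 and 3.17 CPM at days 2.5 to 5. Of these components 21 were under 3 counts at day 2 and 246 at day 4. The 4-fold limit at day 2 kept those with many counts at day 1 above 3 there, and no such limit held at day 4. Of all 31146 components compared, 1753 were under 3 counts at day 2 and 1278 at day 4. The 2948 components 2-fold to 4-fold higher held 1.04% of all counts at day 1 and 2.82% at day 2, and 8.51% in the day 5 library. Of these, 1752 had been under 3 counts at day 1. Those 1752 had too few counts at days 1 and 2 to pass the filter without later libraries. Their number and their later levels are thus in part set by the filter.

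Between day 1 and day 2, 16.1% of all counts moved from some components to others, taken as the summed gain in library share. The same measure was 12.5% for the step to day 2.5 and 31.4% for the one after it. For the steps to days 4 and 5 it was 19.7% and 14.1%. The steps differ in length, and the most abundant component has a part in the measure. Its share alone went from 9.11% at day 1 to 6.47% at day 2. Some called components came from the same assembly graph. The 209 called lower carried 185 graph numbers and the 1329 called higher carried 1199, so the numbers of components are above the numbers of separate graphs.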
